A study of Sus scrofa with 18 samples.

Results

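The nuclear genes of the respiratory chain code for the subunits of complexes I to V that are made outside the mitochondrion and imported into it. They were taken as the protein-coding genes whose symbol starts with NDUFA, NDUFB, NDUFC, NDUFS or NDUFV and a digit (complex I), the SDH subunit genes (complex II), the UQCR genes and CYC1 (complex III), the numbered COX genes whose digit, from 4 to 8, is followed by A, B or C (complex IV) and the genes starting with ATP5 and a letter (complex V). This gave 62 of the 31908 genes in the count table, of which 30 belong to complex I, 3 to complex II, 6 to complex III, 10 to complex IV and 13 to complex V. A total of 56 had at least 5 reads over the libraries used and entered the tests, out of 26146 genes tested. RNA was sequenced from the serum of 6 female Danish Landrace pigs of 5 months, each bled from a vein under anesthesia at 3 time points. Baseline serum was drawn before any injury. Cardiogenic shock (CS) was produced by injecting microspheres into the left main coronary artery, which blocks small vessels permanently and so models infarction without reperfusion. The pVAD samples came from the same animals in continuing CS while an Impella CP, a percutaneous pump placed across the aortic valve, supported the left ventricle. The samples comprised 6 Baseline, 5 CS and 6 pVAD libraries, because CS replicate 6 was left out.

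Complex I takes electrons from NADH and complex II takes them from succinate, both pass them through ubiquinone to complex III, and cytochrome c carries them to complex IV, where oxygen is reduced to water. Complexes I, III and IV pump protons across the inner mitochondrial membrane, and complex V, the ATP synthase, uses the returning protons to make ATP. Cardiac muscle depends on this pathway for most of its ATP and is rich in these transcripts. Cell-free serum holds only RNA released from cells, so the values below are levels in blood fluid and not levels in the heart. Release from more cells of a type and release of more RNA per cell cannot be told apart in such bulk samples.

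The libraries held 18229243 to 71488943 counted reads each, and the respiratory chain genes took 0.0103 to 0.0463% of them, or 5241 to 19131 reads. CS replicate 6 held 2484066 reads, with reads on only 5 of the 62 genes. CS replicate 4 and pVAD replicate 6 stood apart by composition, since their 4 most abundant transcripts took 71.5 and 57.6% of the reads and their TMM scaling factors were 0.307 and 0.454, against 0.829 to 1.55 in the other 15 libraries. The level of a gene is given as CPM, its reads per 1000000 reads of the TMM-scaled library. CPM is not corrected for transcript length, so levels are compared between libraries and not between genes. Heart muscle markers were sparse in name: 7 of 11 were listed and tested, none of these was called in any comparison, and their summed level ranged from 170 to 205 CPM in CS, 159 to 265 CPM on pVAD and 170 to 254 CPM at Baseline, while MYH6, MYH7, NPPA and NPPB were not listed by symbol. Skeletal muscle markers, tested through 4 genes with none called, summed to 148 to 332 CPM in CS, 86.3 to 257 CPM on pVAD and 70.7 to 226 CPM at Baseline, with the highest sum in CS replicate 1 and median log2 fold changes of 0.34 in CS vs. Baseline and -0.37 in pVAD vs. CS. The red cell, platelet, leukocyte and hepatocyte lists were tested through 3, 3, 5 and 5 genes. Of these, CD3D, a T cell receptor component, was called higher in CS vs. Baseline and lower in pVAD vs. CS. The leukocyte list had median log2 fold changes of 0.97 and -1.07 there. GP9, a platelet glycoprotein, was called lower in pVAD vs. Baseline, while the median of the platelet list was 0.53 there. The part of these genes in the results below was not tested.

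Transcripts of the respiratory chain were found in every library but at low levels. Of the 56 tested genes, 53 had reads in all 17 libraries, 4 averaged under 1 CPM and 7 averaged over 10 CPM, with a median of 3.6 CPM. NDUFA11, an accessory subunit of complex I, entered with only 8 reads in all. No read fell on NDUFA9, NDUFB7, NDUFS8, COX7A1, ATP5MD or ATP5PF in any of the 17 libraries, which allows at most 0.00439 CPM over their pooled reads (3 reads, counting error only). These 6 genes were 9.68% of the 62, against 6.93% of all named protein-coding genes (1012 of 14599). The kit is not stated to mark strand, so reads on overlapping genes cannot be assigned with certainty. Among 52 members found in the RefSeq annotation of the Sscrofa11.1 assembly, 14 overlapped another gene, including the unread genes ATP5MD, which overlapped TAF5, and ATP5PF, which overlapped GABPA. No overlap was found for ATP5ME. Several small subunits also have processed copies in mammalian genomes, and how reads shared with such copies were counted was not tested.

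One respiratory chain gene, ATP5ME, was called in CS vs. Baseline. A call here takes a p below 0.05 before adjustment (edgeR's quasi-likelihood test) and a change of more than 1.5-fold, and the other 55 genes fell short of it. That is 1.79% of the members, beside 2.82% of all tested genes (738 genes). The median log2 fold change of the 56 genes was 0.09, beside 0.00 for all genes, and 36 of them lay above 0. The smallest Benjamini-Hochberg adjusted p over all genes was 1 in edgeR's quasi-likelihood test, so no gene of the series passed an adjusted threshold, and 808 genes were below 0.05 before adjustment. As a check without a model, exact two-sided permutation tests of log2(CPM + 0.1) over the libraries were added after the values were seen, 168 in all for the 56 members and 3 comparisons. Libraries were rearranged without regard to pig, so the pairing of samples was ignored. The tests gave p below 0.05 for 1, 1 and 0 members in CS vs. Baseline, in pVAD vs. CS and in pVAD vs. Baseline, and ATP5ME was not among these members.

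In pVAD vs. CS, ATP5ME was again the only member called, this time lower, which is 1.79% of the members beside 2.43% of all genes (635 genes). The median log2 fold change of the members was -0.11, beside 0.02 for all genes, and 38 of 56 lay below 0. In pVAD vs. Baseline no member was called, nor was any below 0.05 before adjustment, beside 0.834% of all genes called (218 genes), and the median was -0.10, beside 0.01. DESeq2 called 2 members in CS vs. Baseline, 3 in pVAD vs. CS and 0 in pVAD vs. Baseline, beside 3.56, 3.19 and 0.914% of all genes. With the pig as a block, the number called was 0 in CS vs. Baseline, 1 in pVAD vs. CS (ATP5ME) and 1 in pVAD vs. Baseline (NDUFB4, an accessory subunit of complex I, at a log2 fold change of -1.32). The block called 2.63, 1.87 and 0.704% of all genes. The smallest adjusted p was 0.999 in pVAD vs. CS and 1 in pVAD vs. Baseline (edgeR). All 3 comparisons share libraries, so the opposite signs of CS vs. Baseline and of pVAD vs. CS are not separate evidence.

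The libraries of the compared time points overlapped for all 56 members in each comparison, while 0.21% of all genes showed no overlap in CS vs. Baseline, 0.233% in pVAD vs. CS and 0.0688% in pVAD vs. Baseline. For CS vs. Baseline the same direction was seen in each of 5 pigs for 5 of the 56 members (8.93%, beside 4.16% of all genes), namely NDUFB10 and UQCRQ, which were higher, and NDUFS4, UQCRFS1 and COX7A2L, which were lower. For pVAD vs. Baseline it was seen for no member in 6 pigs, beside 2.36% of all genes. For pVAD vs. CS the share of all genes was 4.42%.

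**Figure D1:**
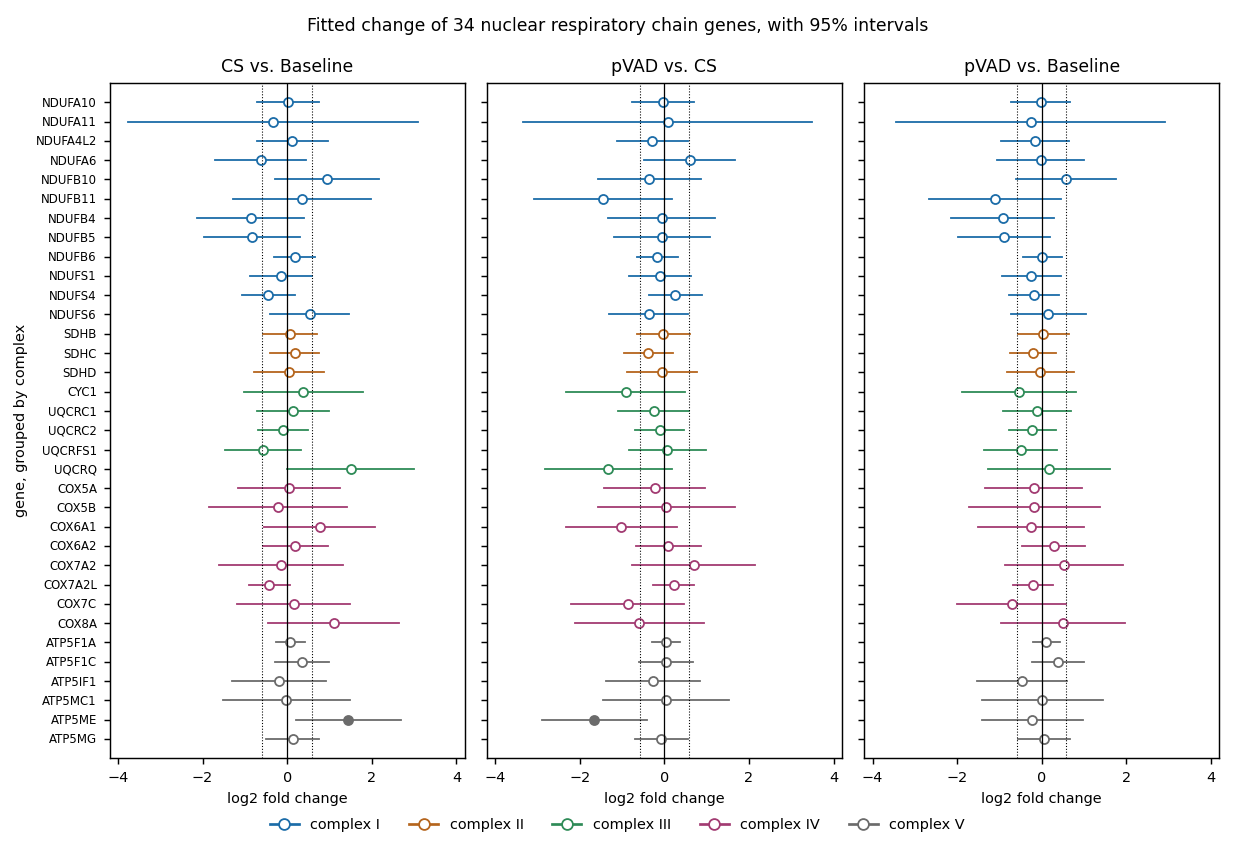
Log2 fold change (horizontal axis) of the 34 tested genes named in the text, coloured by complex, in the 3 comparisons, with 95% intervals. Filled points were called (p below 0.05 before adjustment, and beyond the dotted lines of 1.5-fold), and ATP5ME is the only filled point, at 1.44 in CS vs. Baseline and -1.66 in pVAD vs. CS.

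ATP5ME codes for subunit e of the ATP synthase, a small protein of the membrane part that helps the enzyme form dimers. It had 24.3, 4.21, 1.87, 7.74 and 7.55 CPM in CS replicates 1 to 5, against a lowest, median and highest value of 0.948, 3.4 and 5.69 CPM at Baseline. On pVAD the lowest, median and highest values were 0.246, 2.73 and 5.63 CPM. CS replicate 1 was thus over 3 times as high as any other CS library, and CS replicates 2 and 3 lay within the Baseline range. The level was higher in CS than at Baseline in 4 of 5 pigs and lower on pVAD than in CS in 4 of 5. The log2 fold change was 1.44 ± 0.60 (SE) in CS vs. Baseline (edgeR adjusted p = 1), -1.66 ± 0.60 in pVAD vs. CS (edgeR adjusted p = 0.999) and -0.22 ± 0.57 in pVAD vs. Baseline, which was not called. Neither difference passed the exact permutation test, with p = 0.128 when CS was set against Baseline and p = 0.0866 when pVAD was set against CS. That test ignored the pairing by pig. Both calls rested on CS replicate 1, without which the log2 fold changes were 0.67 and -0.89 and neither was called. The call in CS vs. Baseline was also lost without Baseline replicate 2 (1.31), with all 18 libraries (1.21) and with the pig as a block (0.81), whereas pVAD vs. CS stayed called with the block (-1.20).

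**Figure D2:**
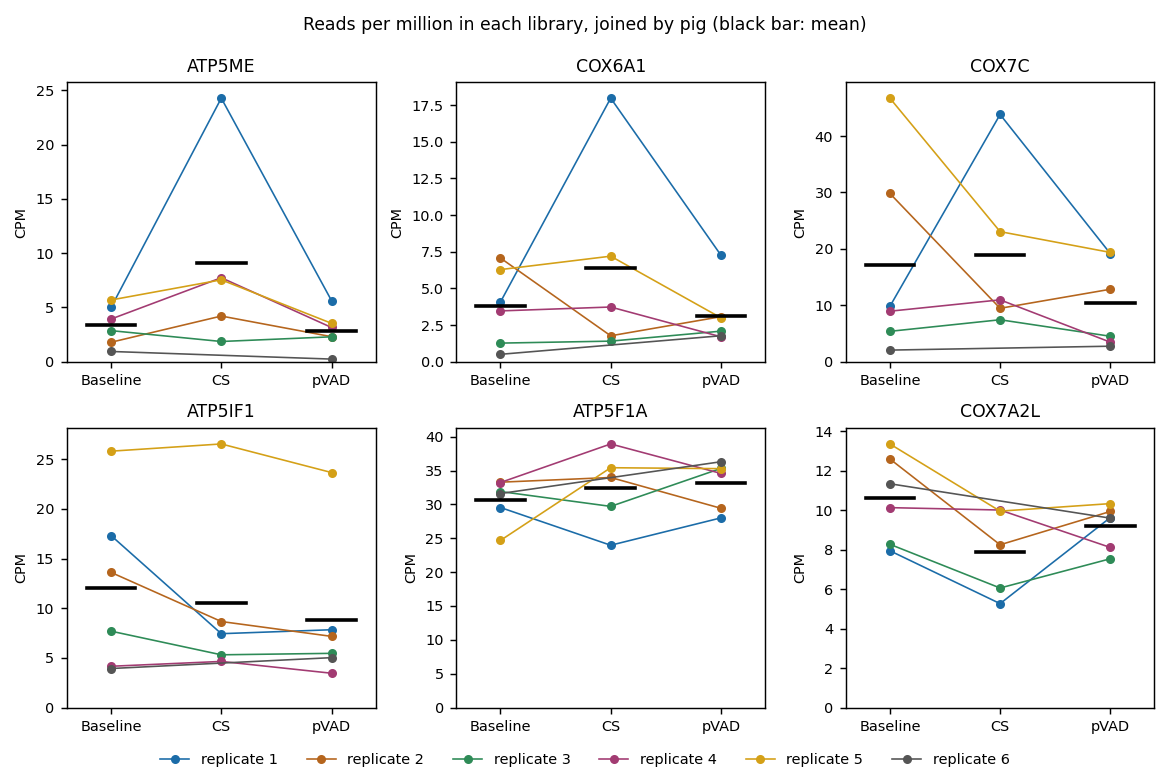
CPM (vertical axis) of 6 genes in each library at Baseline, in CS and on pVAD. Lines join the libraries of a pig (replicate 6 has no CS point) and black bars are means. CS replicate 1 is far above the other CS libraries for ATP5ME, COX6A1 and COX7C, the pig of replicate 5 is highest for ATP5IF1 at each time point, and ATP5F1A lies between 24 and 38.9 CPM throughout.

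None of the 27 tested genes of complex I was called in any comparison, and their median log2 fold change was 0.10 in CS vs. Baseline, -0.17 in pVAD vs. CS and -0.15 in pVAD vs. Baseline. The genes with the highest mean CPM were the accessory subunits NDUFA10, NDUFB6 and NDUFS4. NDUFA10 averaged 22 ± 6.4 CPM in CS and 21.7 ± 9.42 CPM at Baseline (SD, n = 5 and 6). NDUFB6 averaged 22.4 ± 5.88 CPM in CS and 19.9 ± 7 CPM at Baseline. In pVAD vs. Baseline the 95% interval of NDUFB6, -0.45 to 0.47 on the log2 scale, lay inside a 1.5-fold change in either direction. NDUFS4, a subunit whose loss causes severe mitochondrial disease in humans, had 9.31, 12.8, 9.6, 12.2 and 10.4 CPM in CS, against 9.99, 13.7 and 23.4 CPM as the lowest, median and highest Baseline values. It was lower in CS than at Baseline in each of 5 pigs, but the ranges overlapped and the log2 difference of -0.44 ± 0.30 (SE) was not called.

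The complex I genes with the smallest p of their direction also stayed short of the threshold. NDUFA6, an accessory subunit, had a log2 fold change of 0.60 ± 0.52 in pVAD vs. CS, and its lowest library was CS replicate 1 at 0.313 CPM. NDUFB5, another accessory subunit, had -0.89 ± 0.52 in pVAD vs. Baseline. Among the rest of complex I, NDUFB10 was noticed after the values were seen: it was higher in CS in each of 5 pigs, with 1.4, 0.502, 2.57, 2.73 and 2.49 CPM in CS, against 0.171, 0.864 and 2.33 CPM as the lowest, median and highest Baseline values. These values rest on 6 to 136 reads per library, and the log2 difference of 0.93 ± 0.59 was not called, though it was called without Baseline replicate 4 (1.39). NDUFB11, also noticed afterwards, was the member with the smallest exact permutation p in pVAD vs. CS (p = 0.0195), with 0.2 to 0.926 CPM on pVAD and 0.731 to 3.46 CPM in CS, ranges that overlapped (edgeR log2 difference -1.46 ± 0.79, not called). NDUFA4L2, which the symbol rule places with complex I and which is known as a target of the hypoxia-inducible factor HIF-1, was also picked after its values were seen. It averaged 8.34 ± 2.82 CPM in CS and 7.67 ± 4.23 CPM at Baseline, a log2 difference of 0.12 (95% interval -0.72 to 0.96). Both ranges overlapped over most of their length, and it was higher in CS in only 1 of 5 pigs.

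The 3 tested genes of complex II, which is also succinate dehydrogenase of the citric acid cycle, were not called in any comparison. SDHB, the iron-sulfur subunit, had 19.7, 12.1, 10.9, 10.9 and 10.2 CPM in CS, against 2.91, 12.4 and 18.2 CPM as the lowest, median and highest Baseline values. The other 4 CS libraries lay close together below CS replicate 1. The membrane anchors SDHC and SDHD had log2 differences of 0.18 and 0.03 in CS vs. Baseline and of -0.38 and -0.07 in pVAD vs. CS. The 95% interval of SDHC in pVAD vs. CS ran from -0.96 to 0.20 and that of SDHD in CS vs. Baseline from -0.79 to 0.86, and none of the intervals of the 3 genes lay wholly inside a 1.5-fold change in either direction.

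None of the 6 complex III genes was called. The core subunits UQCRC1 and UQCRC2 averaged 6.33 ± 1.71 and 6.98 ± 1.96 CPM in CS, against 5.75 ± 3.73 and 7.51 ± 1.82 CPM at Baseline. UQCRFS1, the Rieske iron-sulfur protein, was lower in CS in each of 5 pigs, with 1.2, 1.63, 1.84, 2.64 and 2.23 CPM in CS and 2.07 to 3.7 CPM at Baseline. The log2 difference of -0.57 ± 0.44 was not called by edgeR and was below the 1.5-fold limit, while its exact permutation p was the smallest of the members in CS vs. Baseline (p = 0.0238). On pVAD the gene ranged from 0.818 to 3.79 CPM, wider than at either other time point. UQCRQ, a small ubiquinone-binding subunit singled out after its values were seen, had the largest log2 difference of the members in CS vs. Baseline, 1.501 ± 0.726, and was not called by edgeR (exact permutation p = 0.0758). It had 3.44, 0.311, 2.64, 1.41 and 1.61 CPM in CS, against 0.0855, 0.637 and 1.33 CPM as the lowest, median and highest Baseline values, and was higher in CS in each of 5 pigs. DESeq2 called it higher in CS vs. Baseline and lower in pVAD vs. CS. With edgeR it was called in CS vs. Baseline without Baseline replicate 1 (1.83), without CS replicate 2 (1.77), without pVAD replicate 6 and without CS replicate 4 and pVAD replicate 6 together (1.59), and in pVAD vs. CS without CS replicate 2 (-1.60) or pVAD replicate 5 (-1.77). Only 3 to 143 reads per library stood behind these levels, and CS replicate 2 lay inside the Baseline range.

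The 9 tested genes of complex IV, cytochrome c oxidase, were not called and were the most variable. COX7C, a small structural subunit, had 43.8, 9.47, 7.44, 11 and 23.1 CPM in CS, against 2.07, 9.38 and 46.7 CPM as the lowest, median and highest Baseline values and 2.76, 8.68 and 19.4 CPM on pVAD. The highest CS and Baseline libraries stood well above the others and came from different pigs, replicates 1 and 5. COX5A, which sits on the matrix side of the complex, had 2 reads (0.0481 CPM) in CS replicate 1 but 5.19 to 9.56 CPM in the other 4 CS libraries, against 3.02 to 8.25 CPM at Baseline. COX7A2L, a protein that joins complexes III and IV into supercomplexes, had the smallest p among members lower in CS. It had 5.27, 8.25, 6.06, 10 and 9.96 CPM in CS, against 7.95, 10.7 and 13.4 CPM as the lowest, median and highest Baseline values. All 5 pigs were lower in CS, the ranges overlapped, and the log2 difference of -0.42 ± 0.24 (95% interval -0.91 to 0.07) was not called (exact permutation p = 0.0736).

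Complex IV has paired isoforms, one made in most tissues and the other mainly in heart and skeletal muscle. COX6A1, the widespread form, had 18, 1.77, 1.41, 3.73 and 7.2 CPM in CS, against 0.508, 3.77 and 7.07 CPM as the lowest, median and highest Baseline values. Its CS vs. Baseline log2 difference of 0.77 ± 0.63, not called, was -0.09 without CS replicate 1. COX6A2, the muscle form, averaged 5.47 ± 2.89 CPM in CS and 4.78 ± 2.3 CPM at Baseline, with a log2 difference of 0.19 ± 0.37. On pVAD it averaged 5.83 ± 1.17 CPM, 0.28 ± 0.36 above Baseline on the log2 scale, and neither difference was called. COX7A1, the muscle form of subunit 7A, had no read, and its widespread counterpart COX7A2 had 0.091 to 2.65 CPM in CS and 0.428 to 2.05 CPM at Baseline. COX8A, the widespread form of subunit 8, averaged 2.66 ± 1.36 CPM in CS and 1.27 ± 1.75 CPM at Baseline, with a log2 difference of 1.10 ± 0.74 that was not called (exact permutation p = 0.0931). Baseline replicate 5, at 4.76 CPM, stood above the other Baseline libraries (0.114 to 1.04 CPM), and without it the log2 difference was 2.19 and was called. No gene with the symbol COX8B was listed.

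Of the 11 tested genes of complex V, ATP5ME was the only one called. ATP5F1A, the alpha subunit of the catalytic head, was the steadiest member: it had 24, 34, 29.7, 38.9 and 35.4 CPM in CS, against 24.7, 31.7 and 33.3 CPM as the lowest, median and highest Baseline values and 28, 34.9 and 36.3 CPM on pVAD. The 95% intervals of its log2 difference were -0.26 to 0.41 in CS vs. Baseline, -0.30 to 0.37 in pVAD vs. CS and -0.21 to 0.43 in pVAD vs. Baseline, all inside a 1.5-fold change in either direction (0.585 on the log2 scale). It was the only member to meet this in CS vs. Baseline and in pVAD vs. CS, while 12 and 11.7% of all genes did so, and in pVAD vs. Baseline 2 members did, with 17% of all genes. For the other members, these samples cannot exclude a change of 1.5-fold. ATP5F1C, the gamma subunit of the rotating stalk, averaged 6.59 ± 1.64 CPM in CS and 5.16 ± 1.93 CPM at Baseline, and 6.74 ± 2.16 CPM on pVAD, with no call.

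ATP5IF1, the inhibitor that stops the ATP synthase from running backwards and splitting ATP when the membrane potential collapses, differed between pigs more than between time points. The pig of replicate 5 had 25.8 CPM at Baseline, 26.5 CPM in CS and 23.7 CPM on pVAD, the highest value at each time point. The other 4 CS libraries had 4.64 to 8.66 CPM, the other 5 pVAD libraries 3.46 to 7.83 CPM and the other 5 Baseline libraries 3.93 to 17.3 CPM. Its log2 difference was -0.19 ± 0.54 in CS vs. Baseline and -0.27 ± 0.54 in pVAD vs. CS, neither of them called. Among the 5 pigs with all 3 libraries, the same pig was highest at every time point for 2 of 52 members with at least 1 CPM (3.85%, beside 5.87% of all such genes), namely ATP5IF1 and NDUFA10. The same pig was lowest at every time point for 5 of 52 (9.62%, beside 5.62%), namely ATP5IF1, NDUFS1, NDUFS4, NDUFB10 and ATP5MG.

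Summed over a complex, the levels of the time points overlapped. Complex I summed to 146 ± 15.7 CPM at Baseline, 150 ± 13 CPM in CS and 136 ± 9.24 CPM on pVAD (SD, 6, 5 and 6 libraries). Complex IV summed to 47.1 ± 23.1, 50.6 ± 20.5 and 39.5 ± 12.4 CPM, and complex V to 72.9 ± 11.5, 80.3 ± 15 and 72.5 ± 11.2 CPM. All members together summed to 309 ± 45.4 CPM at Baseline, 326 ± 43.6 CPM in CS and 288 ± 32.6 CPM on pVAD. Within pigs, the sum of all members was lower on pVAD than in CS in each of 5 pigs, by 5.18 to 75.5 CPM, and the mean paired difference was -35.3 ± 34.5 CPM (SD). It was higher in CS than at Baseline in 4 of 5 pigs (8.81 ± 58.6 CPM) and lower on pVAD than at Baseline in 5 of 6 (-21.7 ± 36.2 CPM). Complex I had a paired difference of -12.7 ± 15.1 CPM in pVAD vs. CS and was lower in 4 of 5 pigs. These sums are given without a test. The direction in pVAD vs. CS depended on the TMM scaling. As CPM of the library total, the sum of all members was lower on pVAD only in replicates 2 and 5. CS was the time point with the highest mean for 31 of the 56 members (55.4%, beside 37.7% of all genes) and pVAD that with the lowest for 25 (44.6%, beside 28.8%). These shares are descriptions of means whose differences, but for ATP5ME, did not pass the test. The 13 subunits encoded in mitochondrial DNA summed to 873 ± 199, 1245 ± 891 and 909 ± 781 CPM on the TMM scale. On that scale they varied more between libraries (305 to 2691 CPM) than the nuclear genes did (256 to 382 CPM). Per library total, the nuclear members ranged from 103 to 463 CPM. The mitochondrial sums are not given per library total, so the contrast is shown for the TMM scale only. The highest mitochondrial sums were in CS replicate 4 and pVAD replicate 6. These are the libraries with the lowest TMM factors (0.307 and 0.454), which raise their CPM, so this order depends on the scaling.

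**Figure D3:**
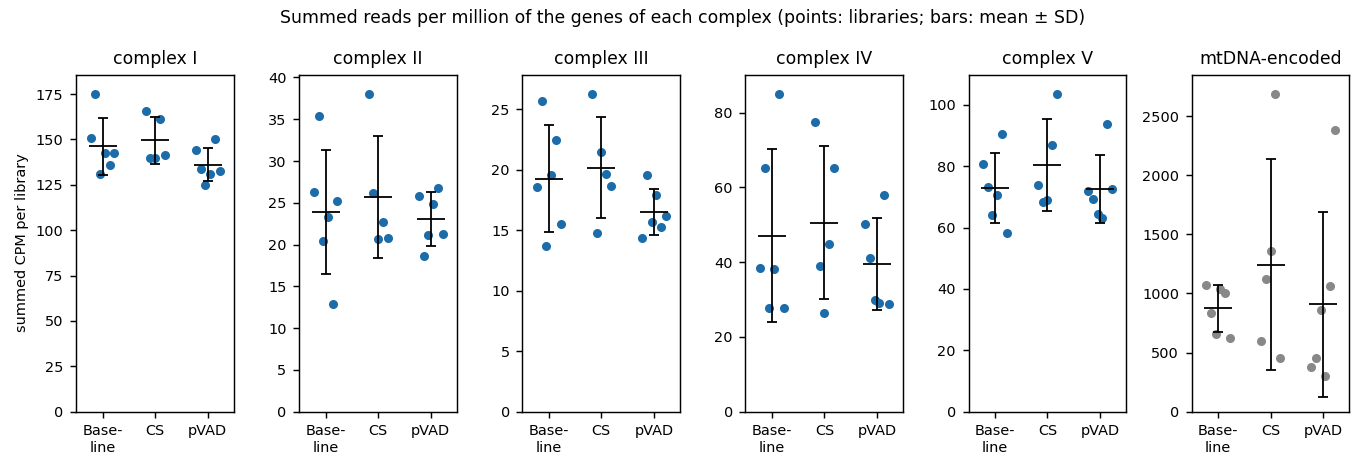
Summed CPM (vertical axis) of the tested genes of each complex and of the 13 mitochondrially encoded subunits, in each library at Baseline, in CS and on pVAD, with mean and SD. The time points overlap for every complex, and the sums of the mitochondrially encoded subunits spread from 305 to 2691 CPM.

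The members varied more between pigs than most protein-coding genes. The SD of log2 CPM within a time point had a median of 0.81 over the 52 members with at least 1 CPM and 0.57 over the 15819 protein-coding genes with at least 1 CPM. The median level of these members was lower, 4.21 CPM beside 9.64 CPM, and low counts raise this SD, so the share due to level was not tested. Complex IV had the highest median SD, 1.30 over 8 genes at a median level of 4.85 CPM, and complex II the lowest, 0.60 over 3 genes. COX5A (1.57), COX7C (1.35) and ATP5ME (1.28) were among the most variable and ATP5F1A (0.20) and COX7A2L (0.31) among the least.

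**Figure D4:**
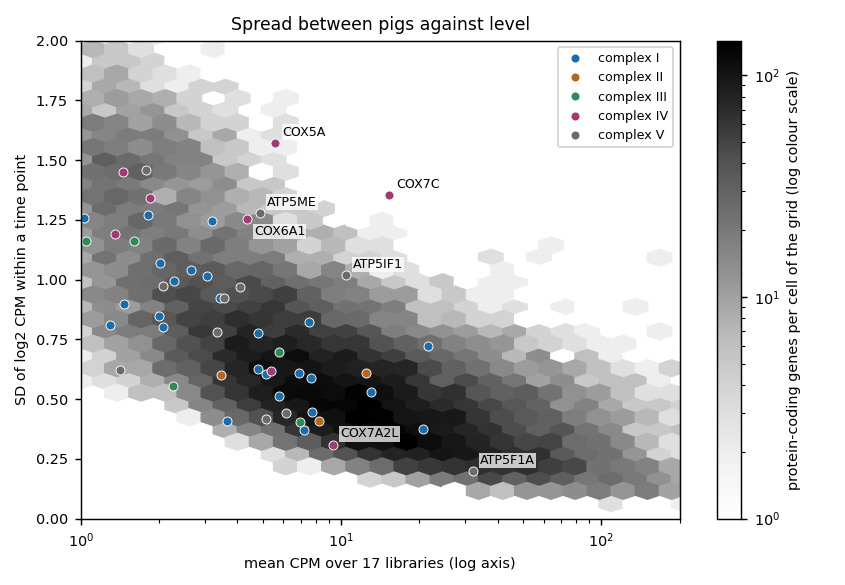
SD of log2 CPM within a time point (vertical axis) against mean CPM over 17 libraries (log axis) for 52 members, coloured by complex, over all protein-coding genes (grey, shaded by number; a part of them lies beyond the axes). COX7C and COX5A lie at the upper edge of the genes of their level, and ATP5F1A, at an SD of 0.20, at the lower edge.

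CS replicate 1 was the highest or lowest of the 17 libraries for more members than any other library. It was the highest for 9 members (16.1%), ATP5ME, COX6A1, UQCRQ, CYC1, SDHB and SDHC among them. Baseline replicate 5 was also the highest for 9. CS replicate 1 was the lowest for 12 (21.4%), COX5A, COX7A2L and NDUFA6 among them. COX5B of complex IV and ATP5MC1 of the ATP synthase membrane ring had no read there. It was also the highest or lowest for 19.8 and 20.9% of all genes with at least 1 CPM, shares close to those of the members. It had the fewest genes with reads of the 17 (22019, against 23611 to 25830 in the others), at 49615419 reads. Its part in the CS values was measured only by leaving it out.

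**Figure D5:**
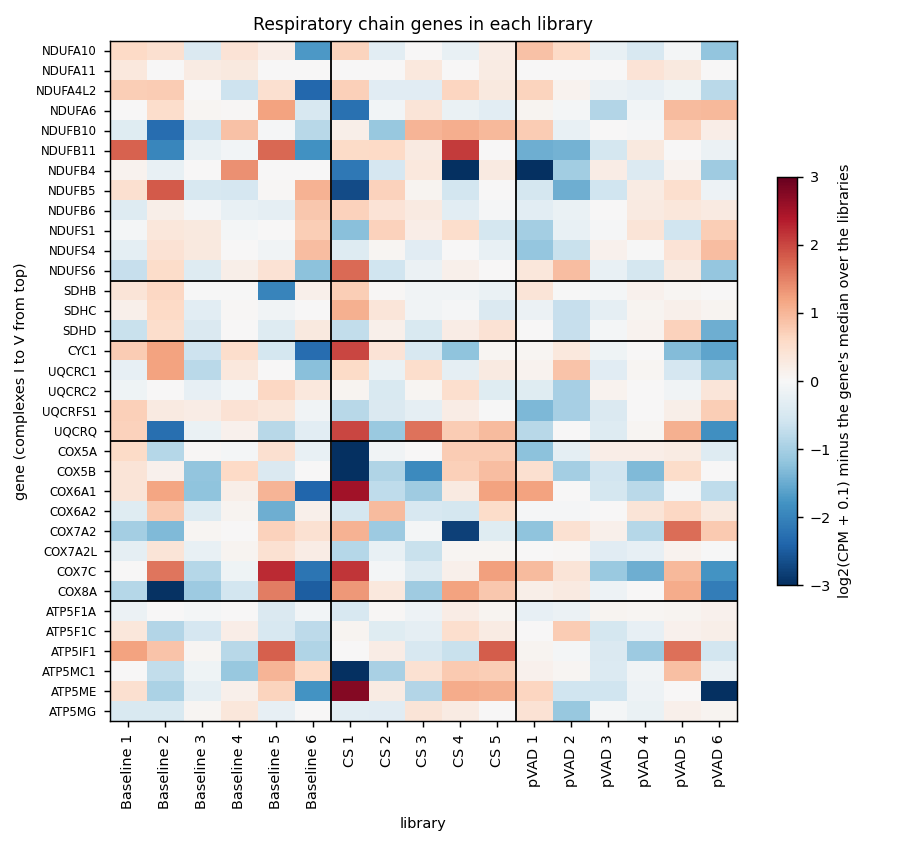
Log2(CPM + 0.1) of the 34 tested genes named in the text (vertical) in the 17 libraries (horizontal), each minus the gene's median. Colours are limited to 3 log2 units either way. CS replicate 1 holds both the darkest red (ATP5ME, COX6A1, COX7C) and the darkest blue (COX5A, COX5B, ATP5MC1) cells of CS.

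Other lists hold genes that serve the respiratory chain without being among the 62 members, and their calls stand beside 2.82% of all genes called in CS vs. Baseline, 2.43% in pVAD vs. CS and 0.834% in pVAD vs. Baseline. Of 36 tested assembly factors, 1 was called higher in CS vs. Baseline and lower in pVAD vs. CS. That was NDUFAF8, which helps build complex I, with 3.2 CPM on average in CS, against 1.08 CPM at Baseline (log2 1.59 ± 0.64), and with 1.16 CPM on pVAD (-1.45 ± 0.64 against CS). Its highest library was CS replicate 1 at 5.99 CPM, while the other CS libraries had 1.52 to 3.56 CPM and Baseline 0.102 to 2.71 CPM. Of 12 regulators of mitochondrial biogenesis, POLRMT, the mitochondrial RNA polymerase (log2 1.03 ± 0.43), and the transcription factor YY1 (0.69 ± 0.29) were called higher in CS, and YY1 was called lower in pVAD vs. CS. POLRMT had 17.6 and 19.6 CPM in CS replicates 1 and 4. The other CS libraries had 5.36 to 6.8 CPM, within the Baseline range of 1.39 to 8.86 CPM. YY1 had 60 and 64.1 CPM in CS replicates 1 and 4. It had 23.9 to 30.4 CPM in the other CS libraries and 15 to 42.4 CPM at Baseline. PPARGC1A, the coactivator that drives the program in muscle, had a log2 difference of 0.02 in CS vs. Baseline. Of 11 carriers and pores, SLC25A3, the phosphate carrier that supplies the ATP synthase, was called higher in CS (1.04 ± 0.47) and lower in pVAD vs. CS (-1.03 ± 0.47), and SLC25A5, an ADP/ATP carrier, was called lower in pVAD vs. Baseline (-1.57 ± 0.74). SLC25A3 had 12.4 and 8.83 CPM in CS replicates 1 and 4. The other CS libraries had 2.3 to 4.77 CPM, within its Baseline range of 0.889 to 5.74 CPM. Of the 13 mitochondrially encoded subunits, ATP8 was called higher in CS (1.53 ± 0.60) and lower in pVAD vs. CS (-1.26 ± 0.60), and its highest library was CS replicate 4. The edgeR adjusted p of each of these calls was 1, or 0.999 in pVAD vs. CS. The low TMM factor of CS replicate 4 (0.307) raises its CPM. Its high values of POLRMT, YY1, SLC25A3 and ATP8 therefore depend on the scaling.

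Further subunits lay outside the symbol rule. COX4I1, COX4I2, NDUFAB1, CYCS and DMAC2L were tested and not called. COX4I2, the complex IV isoform known to be used under low oxygen, averaged 1.84 CPM in CS, 2.31 CPM at Baseline and 3.34 CPM on pVAD. Its log2 difference was -0.32 ± 0.57 in CS vs. Baseline and 0.85 ± 0.56 in pVAD vs. CS. A further 16 genes were described as subunits but listed without a symbol, 14 of them tested. Of these, 1 was called, a cytochrome b-c1 complex subunit 6 gene, but all its 11 reads came from CS replicate 4. Among the others, the ATP synthase beta subunit averaged 3.8 CPM in CS and 1.94 CPM at Baseline (log2 0.96 ± 0.50, not called), and SDHA, the flavoprotein of complex II, averaged 13.6 CPM in CS and 11.8 CPM at Baseline (0.21 ± 0.34, not called).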

How the data were processed

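Total RNA from pig serum was sequenced on a NovaSeq system after low-input library preparation. The authors trimmed reads with Trim Galore 0.4.4, aligned them with STAR 2.4.2a, used featureCounts (R 3.6.0) to count reads on genes and named the genes through biomaRt. The deposited table holds raw counts, and the genome build is not given in the sources used here. Columns of the authors' own comparisons were not used.

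All results were computed from these counts in R 4.3.3. Genes with at least 5 reads in total over 17 libraries (18 were deposited; CS replicate 6 was left out for its depth) were scaled with TMM and tested with edgeR 4.0.16 (quasi-likelihood test, time point as the only term, a single fit, two-sided). A call took a p below 0.05 before adjustment and a change of more than 1.5-fold, the study's threshold, and Benjamini-Hochberg adjusted p values cover all genes tested. Log2 CPM used a prior count of 2. Standard errors and 95% intervals come from the same fit. The steps were tested on simulated data.

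Libraries of 1 replicate number came from 1 pig, so the numbers pair the samples. Deviations from the time point means correlated with a median r of 0.158 over 16 same-pig pairs of libraries and -0.0258 over 80 pairs of different pigs. The fit without the block stayed the main one, since the methods name no pig term for the RNA tests.

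Named genes were every called member, the 3 of highest mean CPM per complex, the smallest p per direction and comparison, the COX6A, COX7A and COX8 isoforms and ATP5IF1. Other genes named (NDUFA4L2, NDUFA11, NDUFB4, NDUFB10, NDUFB11, NDUFS1, NDUFS6, CYC1, UQCRQ, COX5B, ATP5MC1 and ATP5MG) were chosen after their values were seen. The members, the other gene lists and the markers were chosen with earlier results of these data known. Alternatives were DESeq2 1.42.0, other scaling, filters, thresholds and sample sets, the pig as a block, leaving out each library and, added later, exact permutation tests. P values measure the spread between the samples of these 6 pigs. No sequences are shown. The count of members that moved in 1 direction in every pig in pVAD vs. CS is not reported here.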

Additional observations from a re-analysis of the deposited data

Results flagged for a closer look

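In 87 groups of libraries (named members and summed levels at each time point), 9 held a library far from the others by Dixon's criterion. Its nominal rate of 1 in 20 assumes separate groups of normally distributed values. Here CPM was not log-transformed, the groups share libraries and every flagged value was a high one. That rate therefore does not apply, and no excess is shown. ATP5IF1 was far higher in CS replicate 5 (26.5 CPM, others 4.64 to 8.66 CPM) and in pVAD replicate 5 (23.7 CPM, others 3.46 to 7.83 CPM), which are the same pig. That pig also had the highest sum of complex V on pVAD (93.9 CPM, others 63.1 to 72.4 CPM) and, at Baseline, the outlying COX8A level (4.76 CPM, others 0.114 to 1.04 CPM). CS replicate 1 stood out for ATP5ME (24.3 CPM, others 1.87 to 7.74 CPM) and for SDHB (19.7 CPM, others 10.2 to 12.1 CPM), and the pVAD library of the same pig for COX6A1 (7.27 CPM, others 1.7 to 3.07 CPM). NDUFB6 stood out in Baseline replicate 6 (33.3 CPM, others 14.5 to 21.2 CPM). The summed level of the mitochondrially encoded subunits stood out in pVAD replicate 6 (2384 CPM, others 305 to 1066 CPM). That holds on the TMM scale, where the low factor of this library (0.454) raises its CPM. The flag was not examined per library total.

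CS replicate 6, which entered no comparison, had reads on 5 members. Of these, 4 exceeded every Baseline library, in CPM of the library total: UQCRC1 at 90.2 CPM (224 reads), against at most 11.2 CPM at Baseline, NDUFA6 at 75.7 CPM (188 reads), against at most 3.62 CPM, UQCRC2 at 50.7 CPM (126 reads), against at most 8.84 CPM, and NDUFS6 at 22.9 CPM (57 reads), against at most 5.64 CPM. ATP5F1A, read at 24.7 CPM or more in each Baseline library on the TMM scale, had 9 reads there (3.62 CPM). The library held 2484066 reads on 2891 genes. How many of those genes exceeded every Baseline library was not counted, so the 4 members are not shown to differ from other genes read there.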

How the results depend on the processing

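Of 287 recalculated counts, medians and sums, 254 stayed close to the value reported. The number of members called in CS vs. Baseline (1 as reported) was 0 at p below 0.01, 2 with DESeq2, 2 with all 18 libraries, 0 with the pig as a block (replicate block) and 2 without CS replicate 4 and pVAD replicate 6, an alternative chosen after seeing the data. Leaving out 1 library gave 0 to 2, beside 1.86 to 4.08% of all genes. The share of all genes was 3.56% with DESeq2, 3.8% with all 18 libraries and 2.63% with the block. It was 2.68% without CS replicate 4 and pVAD replicate 6. In pVAD vs. CS (1 as reported) the number of members called was 0 at p below 0.01, 3 with DESeq2 and 4 with all 18 libraries. Leaving out 1 library gave 0 to 2 there, beside 1.48 to 3.82% of all genes. The share of all genes was 3.19% with DESeq2 and 3.63% with all 18 libraries. In pVAD vs. Baseline (0 as reported) the number of members called was 1 with the block, NDUFB4 (-1.32), beside 0.704% of all genes. There, leaving out 1 library gave 0 to 1, beside 0.689 to 1.62% of all genes. Apart from ATP5ME in CS vs. Baseline, the block changed no call among the named genes that were not picked after their values were seen. With all 18 libraries the median log2 fold change of the members became -0.10 in CS vs. Baseline and 0.080 in pVAD vs. CS, against 0.09 and -0.11 as reported, and the median of all genes moved alike, to -0.21 and 0.22. Leaving out 1 library gave 0.01 to 0.11, -0.19 to -0.08 and -0.18 to -0.05 in the 3 comparisons.

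With CS replicate 6 included, NDUFA6 turned to 2.61 in CS vs. Baseline and -2.64 in pVAD vs. CS (both called), the direction opposite to that without it, and UQCRC1 was called in both comparisons (1.87 and -1.98) and UQCRC2 in pVAD vs. CS (-1.18). The exact permutation test on log2(CPM + 0.1), which ignored the pairing, did not pass for ATP5ME (mean differences 1.14 and -1.54). It changed no other call among the named genes that were not picked after their values were seen. NDUFB11, which was so picked, passed both thresholds in pVAD vs. CS (mean difference -1.25). Among 1782 recalculated values of named genes, 128 changed sign while called in neither fit. COX8A was called without Baseline replicate 5 (2.19 in CS vs. Baseline and 1.60 in pVAD vs. Baseline), COX6A1 without pVAD replicate 1 (-1.46 in pVAD vs. CS) and ATP5IF1 without pVAD replicate 5 (-1.05 in pVAD vs. Baseline).

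With library sizes that leave out mitochondrially encoded and ribosomal RNA genes, the sum of complex I was 166 CPM at Baseline, 170 CPM in CS and 154 CPM on pVAD and that of complex III 18.7 CPM on pVAD. As CPM of the library total, the pVAD sums of complexes I, II, III and V were 163, 27.8, 19.98 and 85.1 CPM. On that scale all members together had 320, 429, 256, 103 and 463 CPM in CS replicates 1 to 5. The pVAD libraries of the same pigs had 432, 386, 386, 412 and 320 CPM. The lower sum on pVAD than in CS in each pig was thus seen with TMM scaling but not as CPM of the library total. Apart from the changes of library size, the causes of these shifts were not tested. Depth limits the members below about 1 CPM, and with 5 or 6 pigs per time point the median standard error of a member's log2 fold change was 0.49 to 0.51.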
